A study of Mus musculus with 6 samples.

Results

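The fetal LIN28B and IGF2BP programme was followed here through 7 genes in FL (fetal liver) cells that lack Pogz. Lin28b, Igf2bp1, Igf2bp2, Igf2bp3, Hmga1, Hmga2 and Arid3a were listed as regulators of fetal hematopoietic identity, and every probe set that names exactly 1 of them was taken, the one with the highest mean log2 intensity leading for its gene. Of the 7 genes, 5 had such a probe set, with 16 probe sets in all out of 45037 on the array. Lin28b and Arid3a had 1 each, Igf2bp1 and Hmga2 had 4 each and Igf2bp3 had 6. Igf2bp2 and Hmga1 had none in the probe annotation used and were not analysed here. Lin28b, Hmga2 and Arid3a lie on chromosome 10, Igf2bp1 on chromosome 11 and Igf2bp3 on chromosome 6.

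RNA came from FLs of 3 Pogz-KO (Pogz-/-) and 3 Pogz-WT (Pogz+/+) embryos at E14.5, all on a congenic C57BL/6 background, and each liver was hybridized to its own Affymetrix mouse genome array. The KO allele lacks the exons for the CENPB and DDE domains and part of the zinc fingers of POGZ, and was made with a β-actin-cre transgene, so Pogz was lost throughout the embryo and not in blood cells alone. The livers were minced and strained to single cells without sorting, so fewer cells of a type and less RNA per cell cannot be told apart in any value below. The comparison asks which genes changed in FL when Pogz was lost.

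LIN28B is an RNA-binding protein of fetal blood progenitors that blocks the maturation of let-7 microRNAs. Let-7 in turn silences mRNAs that carry sites for its seed, among them those of Lin28b itself, Igf2bp1, Igf2bp2, Igf2bp3, Hmga2 and Arid3a. The IGF2BP proteins bind and stabilize mRNAs in the cytoplasm, HMGA1 and HMGA2 bend DNA in chromatin, and ARID3A is a DNA-binding protein that promotes fetal-type B lymphopoiesis. In mice the LIN28B axis is high in FL stem and progenitor cells and falls after birth, when let-7 rises.

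Mature let-7 was not analysed here, but its sequence is the element that ties the listed genes together. The 9 mature mouse sequences taken by name from the RefSeq miRNA table all hold the same seed, GAGGUAG, at bases 2 to 8. They are the 5p arms of let-7a to let-7g, let-7i and miR-98, and other family names were not searched. A selection is shown 5′ to 3′ with the seed in capitals, to show how little the rest of the sequence varies.
let-7a-5p: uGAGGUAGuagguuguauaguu
let-7d-5p: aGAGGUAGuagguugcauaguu
let-7e-5p: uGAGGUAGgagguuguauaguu
let-7g-5p: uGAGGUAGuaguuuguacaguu
miR-98-5p: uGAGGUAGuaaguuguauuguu

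The other end of the axis is the loop of the let-7 hairpin, where the zinc knuckles of LIN28 proteins bind a GGAG motif. Only hairpins with both mature arms placed in the RefSeq miRNA table were read, so some family hairpins may be left out. The letters GGAG, searched on the RNA strand, were found in 8 of the 11 mouse let-7 family loops read, whose lengths were 23 to 36 bases. They were found in 7 of 50 loops of other miRNAs in that length range (14.0%). The loops without the letters were those of let-7b, let-7c-2 and miR-98, which says only that these letters are not in this window. Examples with and without the motif are shown from RefSeq (GRCm38.p6) with GGAG in capitals.
let-7g, chr9:106178868-106178901, plus strand: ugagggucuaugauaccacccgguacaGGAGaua
let-7a-1, chr13:48538210-48538238, minus strand: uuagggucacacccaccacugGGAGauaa
let-7i, chr10:122985664-122985697, minus strand: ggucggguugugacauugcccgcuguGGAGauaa
let-7b, chr15:85707347-85707378, plus strand: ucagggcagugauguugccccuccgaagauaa

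The deposited values are probe set intensities on a linear scale, which the authors scaled so that the 2% trimmed mean was 150 on each array. Median intensity was 29.7 to 31.5 on the Pogz-KO arrays and 35.9 to 54.3 on the Pogz-WT arrays. Pogz-WT replicate 1 stood apart. The ratio of 3′ to 5′ probe sets of the actin control, a usual check of RNA integrity and labelling, was 3.72 to 4.10 on the Pogz-KO arrays, against 52.3 on Pogz-WT replicate 1 and 5.50 and 6.63 on the other Pogz-WT arrays. For Gapdh it was 4.87 to 5.08 on the Pogz-KO arrays, against 15.3 on Pogz-WT replicate 1 and 7.37 and 9.29 on the others. The log2 intensities of replicate 1 correlated with those of the other arrays at 0.794 to 0.810. Pogz-WT replicates 2 and 3 also lay above every Pogz-KO array in both ratios and in median intensity. RNA quality and array scale thus go with genotype even without replicate 1, and cannot be told apart from it in any fit. The leading probe set of each member is therefore given over 6 arrays and again without Pogz-WT replicate 1, when Pogz-WT rests on 2 livers. Some values of other probe sets and list genes are not given both ways. Log2 intensities were tested with limma over all genes or probe sets, with Benjamini-Hochberg adjustment, and the words rose and fell are kept for an adjusted p under 0.05. The fit without that array also used limma's trend and robust options, and values given as without replicate 1 are from that fit. Leaving out the array alone, with limma's plain fit, called 0 of the 18193 genes. A log2 fold change is Pogz-KO over Pogz-WT.

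None of the 5 measured genes was called over 6 arrays, where 0% of the 18193 genes were, and none of the 16 probe sets, where 0% of the 45037 were (limma, lowest adjusted p 0.389). At an unadjusted p under 0.05, 2 probe sets were higher in Pogz-KO (3.00% of all probe sets were) and 1 was lower (8.73% of all). Without Pogz-WT replicate 1, again none of the 16 was called (limma, lowest adjusted p 0.193), although 2.67% of all probe sets were, and at an unadjusted p under 0.05 there were 4 higher probe sets (7.04% of all were higher) and 0 lower ones (8.43% of all). In 5 of 16 probe sets all 3 Pogz-KO arrays lay above all 3 Pogz-WT arrays, against 9.10% of all probe sets, and in 0 of 16 they all lay below, against 15.8% of all. The 5 were 3 probe sets of Igf2bp1 and 2 of Igf2bp3. The median log2 fold change of the 16 was -0.04, beside -0.23 for all probe sets, and without replicate 1 it was 0.04 beside -0.13.

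**Figure D1:**
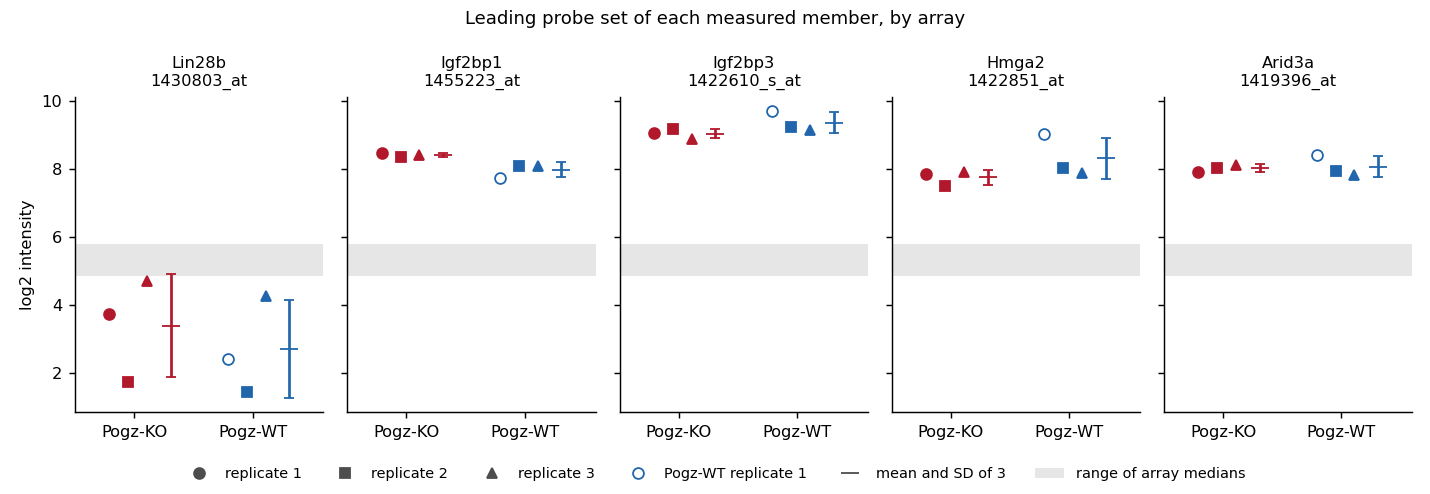
Log2 intensity of the leading probe set of each measured gene on each array (points), with the mean and SD of the 3 arrays of a genotype, Pogz-KO left and Pogz-WT right. The gray band spans the median log2 intensity of the 6 arrays, the open circle is Pogz-WT replicate 1, and only for Igf2bp1 do all Pogz-KO points lie above all Pogz-WT points.

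Lin28b, the RNA-binding protein at the head of the axis, was dim in E14.5 FL on this array. Its single probe set (1430803_at) read 13.4, 3.3 and 26.4 on the Pogz-KO arrays and 5.4, 2.7 and 19.4 on the Pogz-WT arrays. The groups overlapped in part, with Pogz-KO replicate 3 above every Pogz-WT array and Pogz-WT replicate 2 below every Pogz-KO array, and the value lay below the array's median on every array (percentile 7.22 to 47.1 among all probe sets). The log2 fold change was 0.69 with a 95% interval of -1.90 to 3.27 (limma, adjusted p = 0.763), which leaves both a large rise and a large fall possible, and 0.26 with 16 added before log2. Leaving out Pogz-WT replicate 1 gave 0.54, with an interval of -2.12 to 3.20 (limma, adjusted p = 0.864).

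Igf2bp1, an mRNA-stabilizing protein of fetal tissues and a let-7 target, was the member with the most even pattern toward higher signal in Pogz-KO FL, without reaching a call. Its leading probe set (1455223_at) read 354.6, 325.1 and 341.0 on the Pogz-KO arrays and 212.2, 273.7 and 273.7 on the Pogz-WT arrays. All Pogz-KO arrays were above all Pogz-WT arrays, and Pogz-WT replicate 1 was the lowest. The log2 fold change was 0.44, with an interval of -0.07 to 0.94 (limma over genes, adjusted p = 0.400). Without replicate 1 it was 0.31, with an interval of 0.02 to 0.61 (limma over genes, adjusted p = 0.245).

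A second Igf2bp1 probe set (1449210_at) read 227.3, 186.6 and 185.2 on the Pogz-KO arrays and 131.9, 152.1 and 123.9 on the Pogz-WT arrays. Again no Pogz-WT array reached the lowest Pogz-KO array, and here replicate 1 lay between the other 2 Pogz-WT arrays. The next (1418761_at) read 151.6, 153.9 and 177.0 in Pogz-KO and 65.3, 133.7 and 71.9 in Pogz-WT. It did not overlap either, although Pogz-WT replicate 2 came near. Their log2 fold changes were 0.55 and 0.91 over 6 arrays and 0.53 and 0.71 without replicate 1 (limma over probe sets, adjusted p = 0.437, 0.419, 0.193 and 0.210 in that order). These 3 probe sets correlated with each other over the 6 arrays at r = 0.848 to 0.865, a description of 6 points that share their arrays. The fourth (1459825_x_at) carries a suffix, x_at, that marks probes similar to other transcripts. So does 1433732_x_at of Igf2bp3, while 1422610_s_at and 1422611_s_at of Igf2bp3 and 1450780_s_at of Hmga2 carry another, s_at. Signal from other transcripts was not tested for any of them. The fourth Igf2bp1 probe set read 34.2, 162.9 and 145.2 in Pogz-KO and 79.0, 160.0 and 117.1 in Pogz-WT, with full overlap and a log2 fold change of -0.29 (limma, adjusted p = 0.868).

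One scaling carried Igf2bp1 past the threshold. With each array centred on its median and Pogz-WT replicate 1 left out, its log2 fold change was 0.58 (limma over genes, adjusted p = 0.0244), and over its 18 alternatives the adjusted p ran between 0.0244 and 0.646. That scaling called 10.1% of all 18193 genes as higher and moved the median of all genes to 0.18, whereas it was -0.10 with the deposited scale.

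Igf2bp3, a second IGF2BP family member and let-7 target, gave 2 opposite readings. The 3 brighter probe sets had lower means in Pogz-KO FL and the 3 dimmer ones higher means, and none was called. Centring each array on its median turned the first 2 of the brighter ones just above 0, at 0.13 and 0.04 over 6 arrays. The leading one (1422610_s_at) read 525.2, 574.8 and 475.9 on the Pogz-KO arrays and 832.8, 601.8 and 566.2 on the Pogz-WT arrays. The groups overlapped between Pogz-KO replicate 2 and Pogz-WT replicate 3, and the log2 fold change was -0.33, with an interval of -0.91 to 0.26 (limma over genes, adjusted p = 0.527). It was -0.16 without Pogz-WT replicate 1, with an interval of -0.43 to 0.12 (limma over genes, adjusted p = 0.547).

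The next 2 brighter probe sets also overlapped between genotypes. 1433732_x_at read 229.5, 181.0 and 202.3 in Pogz-KO and 418.1, 192.7 and 247.8 in Pogz-WT (log2 fold change -0.42). 1433731_at read 143.6, 90.1 and 227.5 in Pogz-KO and 293.6, 182.9 and 193.8 in Pogz-WT (log2 fold change -0.61). In each of these 3, Pogz-WT replicate 1 was the highest of the 6 arrays.

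Among the dimmer probe sets the order turned round. 1450687_at read 72.7, 65.3 and 77.3 in Pogz-KO and 29.5, 40.0 and 47.7 in Pogz-WT, with no overlap. Its log2 fold change of 0.90 had the lowest adjusted p of the 16 (limma, adjusted p = 0.389), and without replicate 1 it was 0.71 (limma, adjusted p = 0.258). 1453957_a_at read 36.2, 32.1 and 42.0 in Pogz-KO and 4.9, 15.6 and 25.3 in Pogz-WT, also without overlap (log2 fold change 1.56, limma adjusted p = 0.429). It was dim, down to percentile 9.67 of its array, and with 16 added before log2 the log2 fold change was 0.81. 1422611_s_at read 89.3, 137.0 and 136.8 in Pogz-KO and 29.5, 92.4 and 70.3 in Pogz-WT, and overlapped through Pogz-WT replicate 2 (log2 fold change 1.04, limma adjusted p = 0.454). Here Pogz-WT replicate 1 was the lowest of the 6 arrays in each.

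Without that array the signs of the 6 were the same and the differences smaller. The log2 fold changes were -0.16, -0.10 and -0.39 for the 3 brighter probe sets and 0.71, 0.88 and 0.56 for the 3 dimmer ones, none of them called (limma, adjusted p between 0.258 and 0.834). With median centring as well, 2 of the 3 brighter ones were above 0 (0.12 and 0.17). Over 6 arrays, Pogz-WT replicate 1 among them, the brighter probe sets correlated with each other at r = 0.411 to 0.807 and the dimmer ones at 0.844 to 0.950, while every pair across the 2 trios correlated negatively (-0.970 to -0.554). Where the probe sets lie along the Igf2bp3 transcript was not analysed here. No single direction can be given for Igf2bp3: the mean of all its probe sets gave a log2 fold change of 0.36, opposite in sign to the leading one (limma over genes, adjusted p = 0.517).

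**Figure D2:**
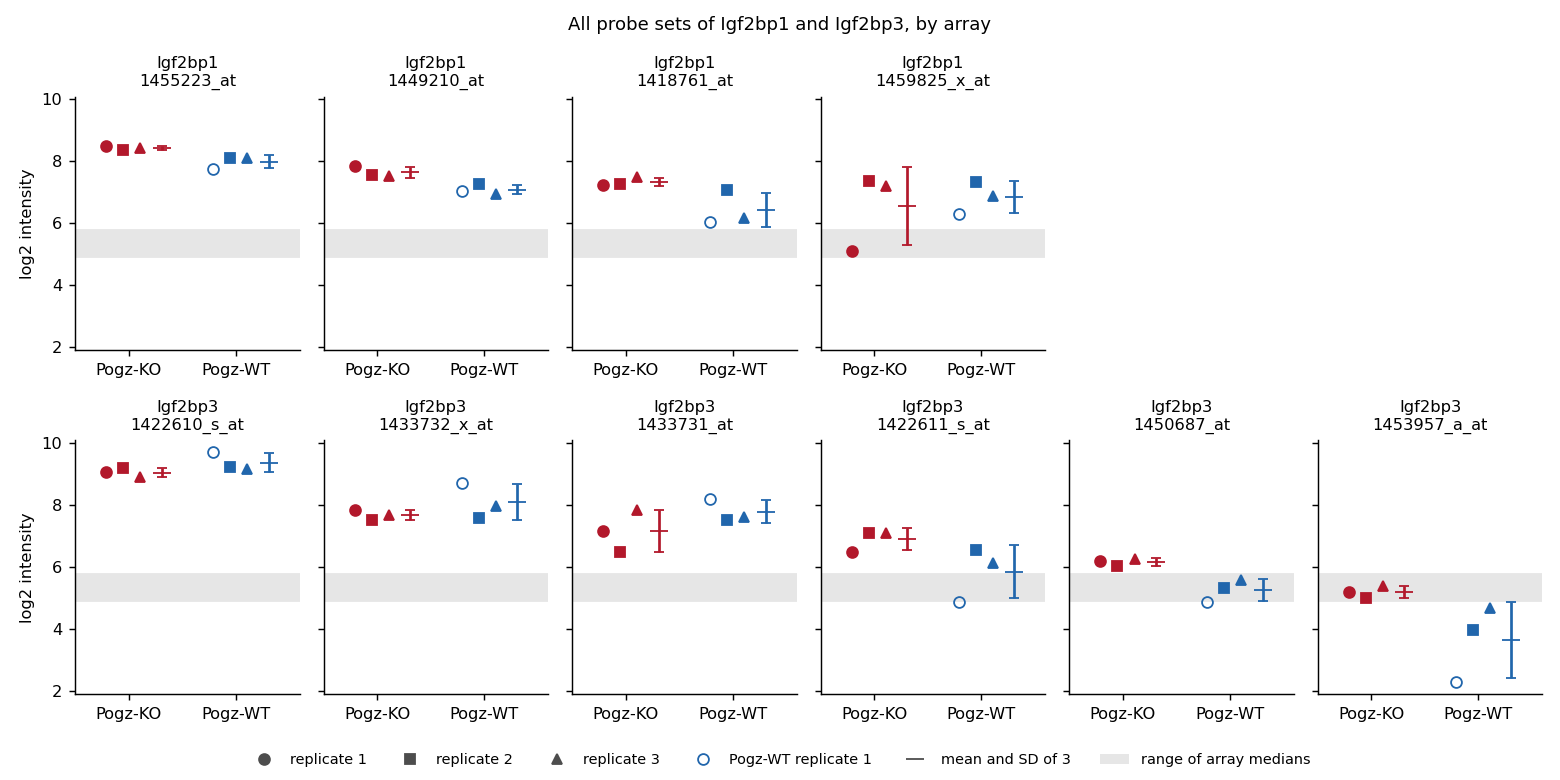
Log2 intensity of the 4 Igf2bp1 probe sets (upper row) and the 6 Igf2bp3 probe sets (lower row) on each array, Pogz-KO left and Pogz-WT right, with the mean and SD of 3 arrays, the range of array medians in gray and Pogz-WT replicate 1 as an open circle. Pogz-WT replicate 1 is the highest array in the 3 leftmost Igf2bp3 panels and the lowest in the other 3.

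Hmga2, a chromatin protein that promotes self-renewal of fetal blood stem cells and a let-7 target, had a negative log2 fold change in all 4 probe sets on the deposited scale, with none called; centring the arrays on their medians without Pogz-WT replicate 1 turned 3 of the 4 above 0. The leading one (1422851_at) read 230.0, 182.5 and 239.8 on the Pogz-KO arrays and 514.9, 259.2 and 236.8 on the Pogz-WT arrays. The groups overlapped, and the high Pogz-WT mean came from replicate 1. The log2 fold change was -0.55, with an interval of -1.45 to 0.35 (limma over genes, adjusted p = 0.494). It was -0.20 without replicate 1, with an interval of -0.57 to 0.18 (limma over genes, adjusted p = 0.580).

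The other Hmga2 probe sets overlapped between genotypes as well. 1450781_at read 166.9, 156.7 and 200.4 in Pogz-KO and 265.4, 234.7 and 176.4 in Pogz-WT (log2 fold change -0.36, and -0.23 without replicate 1). 1450780_s_at read 181.8, 153.3 and 196.5 in Pogz-KO and 171.4, 201.2 and 167.5 in Pogz-WT (log2 fold change -0.03, and -0.06 without replicate 1). The dimmest, 1446196_at, read 32.8, 6.5 and 10.5 in Pogz-KO and 48.9, 31.2 and 39.9 in Pogz-WT. Only Pogz-KO replicate 1 reached into the Pogz-WT range, and the log2 fold change was -1.58 (limma, adjusted p = 0.426), or -1.43 without Pogz-WT replicate 1 (limma, adjusted p = 0.407) and -0.85 with 16 added before log2.

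Arid3a, the DNA-binding let-7 target of fetal B lymphopoiesis, differed between genotypes by less than its spread over 6 arrays on the deposited scale. Median centring gave a log2 fold change of 0.41 over 6 arrays and 0.40 without Pogz-WT replicate 1, neither called. Its probe set (1419396_at) read 238.4, 263.9 and 277.7 in Pogz-KO and 341.8, 247.1 and 228.0 in Pogz-WT, and all Pogz-KO values lay inside the Pogz-WT range. The log2 fold change was -0.05, with an interval of -0.63 to 0.54 (limma over genes, adjusted p = 0.938). It was 0.13 without Pogz-WT replicate 1, the highest of the 6, with an interval of -0.20 to 0.46 (limma over genes, adjusted p = 0.705).

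**Figure D3:**
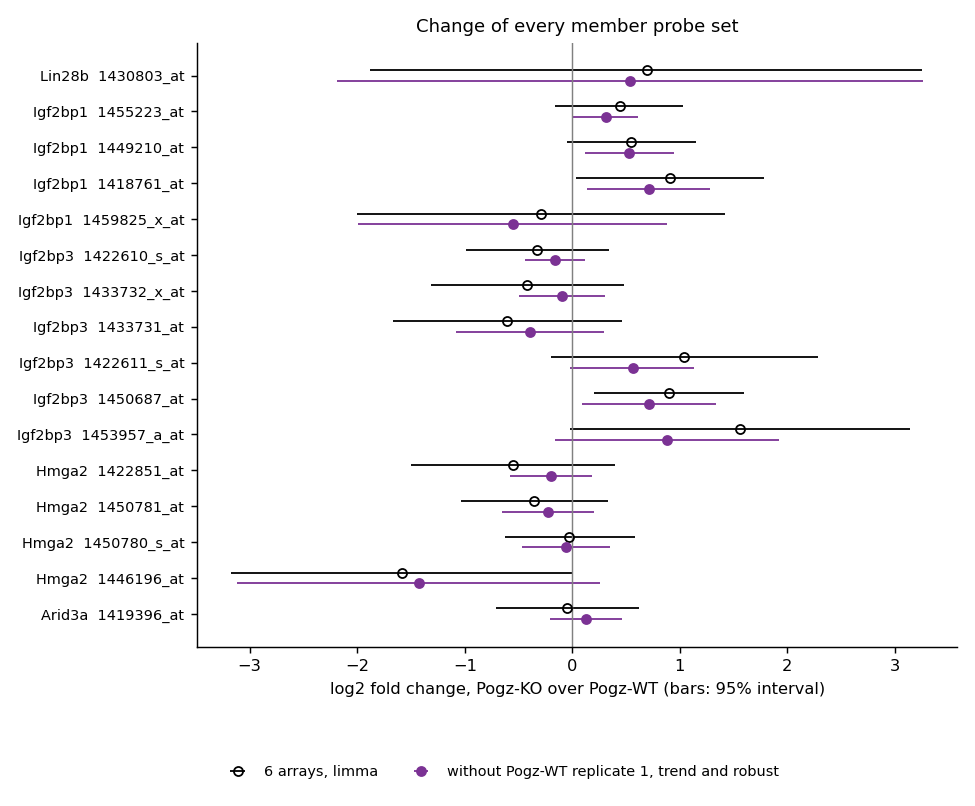
Log2 fold change, Pogz-KO over Pogz-WT, of all 16 probe sets with 95% intervals from limma, over 6 arrays (open circles) and without Pogz-WT replicate 1 with trend and robust (filled circles). The Igf2bp3 probe sets lie on both sides of 0, and for Lin28b the interval runs between -1.88 and 3.25 over 6 arrays.

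Pogz-WT replicate 1 was above both other Pogz-WT arrays in 7 of the 16 probe sets, below both in 6 and between them in 3. Among all probe sets it was above in 50.2% and below in 31.5%. Leaving it out changed the sign of 1 of the 5 genes, Arid3a.

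The genes around the members were followed in 6 lists that cover the making of let-7, other let-7 targets, RNAs bound by IGF2BPs, proteins found with IGF2BPs, genes that set fetal or adult stem cell identity, and relatives of the HMG and ARID3 members. Of 83 listed genes 75 were measured. Over 6 arrays none of the 75 was called, and 10 had an unadjusted p under 0.05 (limma, as had 2389 of all 18193 genes). When Pogz-WT replicate 1 was left out and trend and robust were used, 6 rose, where 2.41% of all genes did, and 4 fell, where 2.07% of all genes did. Neither change alone gave these calls, since leaving out the array in the plain fit called 0 of the 75 and trend and robust over 6 arrays called 1. Of all 18193 genes they called 0 and 22. The split depended on scaling, in the lists as in all genes. After quantile normalization 5 rose and 2 fell, beside 2.07% and 1.66% of all genes, and after median centring 21 rose and 0 fell, beside 10.1% and 0.550%. With the mean of all probe sets of a gene, again without replicate 1, Bmi1 was the only one of the 75 called. That fit called 185 of all 18193 genes. On the deposited scale their median log2 fold change was 0.03, beside -0.10 for all genes. The 10 genes called are described by list below. Genes were named by the largest moderated t over 6 arrays or by a call, a choice that favours groups without overlap. Over 6 arrays, Pogz-KO lay wholly above Pogz-WT in 20 of the 75 and wholly below in 14. Among all 18193 genes it did so in 1962 and 2965.

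In the machinery that makes or blocks let-7, 0 of 18 genes rose and 1 fell without replicate 1 (2.41% and 2.07% of all genes). Drosha, the nuclear nuclease that cuts primary miRNAs, read 1725, 1535 and 1401 in Pogz-KO and 3546, 2107 and 2621 in Pogz-WT, with no overlap (log2 fold change -0.60 ± 0.12 (SE), limma adjusted p = 0.0172 without replicate 1 and 0.349 over 6 arrays). Of its 3 probe sets 2 were higher in Pogz-KO, so this fall holds for the leading one, and the call was lost with median centring (limma, adjusted p = 0.147). Trim71 is a let-7 target that in worms and mice acts with the miRNA pathway in early development. It read 7.2, 42.8 and 32.7 in Pogz-KO and 62.7, 71.1 and 55.2 in Pogz-WT, below the array median only on Pogz-KO replicate 1. It did not overlap between genotypes and was not called (log2 fold change -1.54, limma adjusted p = 0.261 without replicate 1). Ago3, an Argonaute that carries miRNAs, had a log2 fold change of -0.34 and was not called (limma, adjusted p = 0.496 without replicate 1).

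Of 22 measured let-7 targets outside the members, 3 rose and 0 fell without replicate 1 (2.41% and 2.07% of all genes). Igf1r, the receptor for insulin-like growth factors, read 503.0, 486.9 and 512.3 in Pogz-KO and 215.0, 320.5 and 351.4 in Pogz-WT. Its 3 Pogz-KO arrays were close together and above every Pogz-WT array (log2 fold change 0.58 ± 0.12 (SE) without replicate 1, limma adjusted p = 0.0225, and 0.3465 over 6 arrays). Its 5 probe sets disagreed, with 2 higher over 6 arrays and 3 higher without replicate 1, and their mean gave 0.13 and 0.10, not called. Myc, the growth-promoting transcription factor, read 669.7, 556.0 and 530.5 in Pogz-KO and 142.0, 409.8 and 341.8 in Pogz-WT. No Pogz-WT array came up to the Pogz-KO range, and replicate 1 was far below the other 2 (log2 fold change 0.64 ± 0.14 (SE) without it, limma adjusted p = 0.0281, and 1.10 over 6 arrays, adjusted p = 0.380). Cdk6, a kinase of the G1 phase, read 861.2, 968.7 and 887.0 in Pogz-KO and 405.3, 707.2 and 588.8 in Pogz-WT (log2 fold change 0.49 ± 0.12 (SE) without replicate 1, limma adjusted p = 0.0415, and 0.3707 over 6 arrays), with each of its 3 probe sets higher. With quantile normalization and without replicate 1, only Igf1r of these stayed called (limma, adjusted p = 0.0469, against 0.0563 for Myc and 0.0724 for Cdk6). Tgfbr1, a receptor for TGF-β, came close at 281.7, 408.1 and 356.9 in Pogz-KO and 189.3, 226.9 and 210.8 in Pogz-WT (limma, adjusted p = 0.0561 without replicate 1), but 2 of its 3 probe sets were lower. The median of the 22 was 0.16 without replicate 1, beside -0.10 for all genes, and 0.08 over 6 arrays, beside -0.17.

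Among 9 measured RNAs that IGF2BPs are known to bind, 1 rose and 1 fell without replicate 1 (2.41% and 2.07% of all genes). The one that rose was Myc, which is also a let-7 target. Actb, whose mRNA is carried to its site of translation by IGF2BP1, read 17600, 17870 and 15120 in Pogz-KO and 40180, 22690 and 20820 in Pogz-WT (log2 fold change -0.37 ± 0.08 (SE) without replicate 1, limma adjusted p = 0.0249, and 0.4005 over 6 arrays). All Pogz-KO arrays were below all Pogz-WT arrays, 1 of its 2 probe sets was higher, and the call was lost with quantile normalization (limma, adjusted p = 0.713). Gli1 and Kcnq1ot1 were not called (log2 fold change -1.76 and 0.49, limma adjusted p = 0.288 and 0.208 without replicate 1). Igf2, the growth factor mRNA for which the family is named, was looked up after the lists had been seen and had a log2 fold change of 0.05 (limma, adjusted p = 0.955 over 6 arrays).

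Of 8 measured genes for proteins found in particles with IGF2BPs, 2 rose and 0 fell without replicate 1 (2.41% and 2.07% of all genes). Ybx1, a cold-shock-domain protein that packages mRNA, read 6241, 6155 and 5899 in Pogz-KO and 2179, 3819 and 3437 in Pogz-WT. All Pogz-KO arrays were above all Pogz-WT arrays (log2 fold change 0.75 ± 0.08 (SE), limma adjusted p = 0.000902 without replicate 1 and 0.330 over 6 arrays), but 1 of its 3 probe sets was lower. The mean of the 3 gave 0.21 over 6 arrays and -0.16 without replicate 1 (limma, adjusted p = 0.761), so the rise holds for the leading probe set. Syncrip, an RNA-binding protein of the same particles, read 824.3, 882.6 and 1003 in Pogz-KO and 517.0, 600.7 and 588.5 in Pogz-WT, with each of its 5 probe sets higher (log2 fold change 0.60 ± 0.12 (SE), limma adjusted p = 0.0155 without replicate 1 and 0.331 over 6 arrays). Elavl1, which also stabilizes mRNAs, had a log2 fold change of 0.35 and was not called (limma, adjusted p = 0.0721 without replicate 1).

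In the list on fetal and adult stem cell identity, 1 of 14 rose and 1 fell without replicate 1 (2.41% and 2.07% of all genes). Bmi1, a Polycomb protein needed for stem cell self-renewal, read 673.7, 494.5 and 597.4 in Pogz-KO and 187.6, 289.3 and 227.5 in Pogz-WT. The lowest Pogz-KO array stood above the highest Pogz-WT array, and both probe sets were higher. Its log2 fold change was 1.19 ± 0.16 (SE) without replicate 1 (limma, adjusted p = 0.00296). Over 6 arrays it was 1.34, with an adjusted p of 0.305 in limma's plain fit and 0.04995 with trend and robust. There it was the only gene of the lists called, and 22 of all 18193 genes were called. Cdkn2a, the locus that BMI1 represses, had a probe set at 4.3, 2.3 and 1.7 in Pogz-KO and 119.0, 9.5 and 25.5 in Pogz-WT. The groups did not overlap, but the signal was dim on 5 arrays, and the log2 fold change of -2.62 was not called (limma, adjusted p = 0.209 without replicate 1). With 16 added before log2 it was -1.48 over 6 arrays. Cdkn2c, an inhibitor of CDK4 and CDK6, read 482.2, 602.3 and 534.5 in Pogz-KO and 723.4, 902.7 and 779.5 in Pogz-WT (log2 fold change -0.64 ± 0.13 (SE), limma adjusted p = 0.0182 without replicate 1 and 0.3665 over 6 arrays). The call was lost with median centring, at -0.37 (limma, adjusted p = 0.0976), and the value was -0.11 with median centring over 6 arrays.

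Of 6 measured relatives of the HMG and ARID3 members, 0 rose and 1 fell without replicate 1 (2.41% and 2.07% of all genes). Hmgn1, a nucleosome-binding protein, read 9031, 7864 and 8041 in Pogz-KO and 15150, 11130 and 10520 in Pogz-WT (log2 fold change -0.38 ± 0.08 (SE), limma adjusted p = 0.0186 without replicate 1 and 0.3815 over 6 arrays). Every Pogz-KO array was below every Pogz-WT array, and the call was lost with quantile normalization (limma, adjusted p = 0.196). Without replicate 1, 1 of its 4 probe sets was higher and 3 were lower, and their mean gave -0.05 (limma, adjusted p = 0.961). Hmgb3, higher in Pogz-KO, and the dim Hmgn3, lower in Pogz-KO, did not overlap between genotypes and were not called. Without replicate 1 their log2 fold changes were 0.22 and -1.25 (limma, adjusted p = 0.200 and 0.407).

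**Figure D4:**
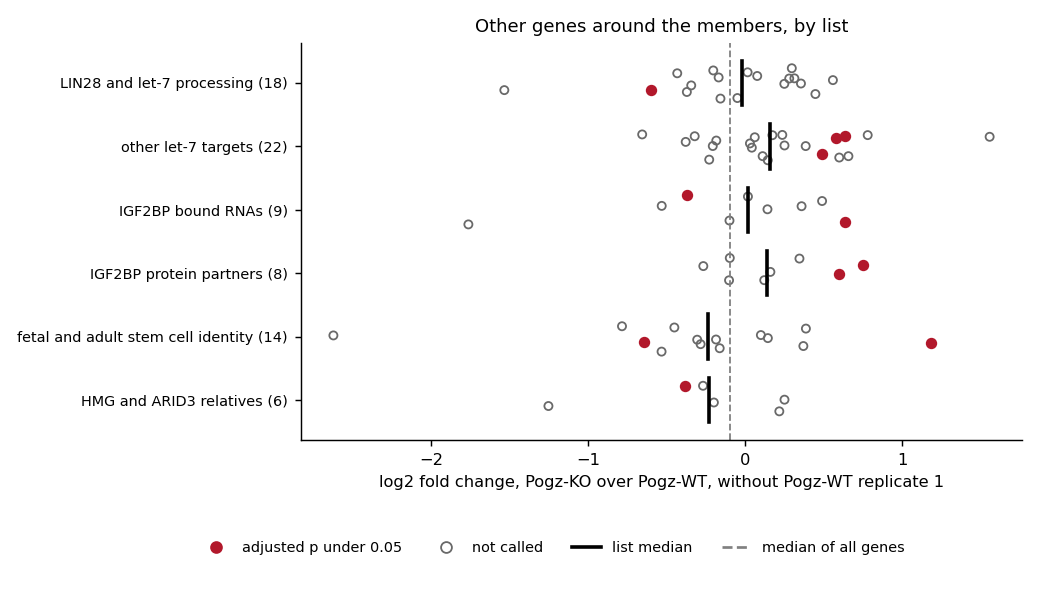
Log2 fold change, Pogz-KO over Pogz-WT, of each measured gene of 6 lists (number in brackets) without Pogz-WT replicate 1, with called genes filled, the list median as a bar and the median of all genes dashed at -0.10. Bmi1 at 1.19 and Ybx1 at 0.75 are the rightmost called genes.

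Markers of the cell types in the livers were read the same way, and none was called over 6 arrays. Without replicate 1, 2.41% of all genes rose and 2.07% fell. A sum is weighted toward its brightest markers, so the median log2 fold change of each list is given too. For all genes that median was -0.17 over 6 arrays and -0.10 without replicate 1. The summed intensity of 7 measured erythroid markers was 35700 to 37900 on the Pogz-KO arrays and 51100 to 74500 on the Pogz-WT arrays (51100 to 51700 without replicate 1). Of the 7, 3 fell without replicate 1, and the median log2 fold change was -0.25 over 6 arrays and -0.29 without replicate 1. For 9 hepatoblast markers the sum was 17100 to 27300 in Pogz-KO and 27700 to 50800 in Pogz-WT (27700 to 34300 without replicate 1). There was 1 fall, and the median was -0.49 over 6 arrays and -0.53 without replicate 1. For 11 markers of endothelium and stroma the sum was 565 to 618 in Pogz-KO and 751 to 968 in Pogz-WT (751 to 903 without replicate 1). With 0 called, the median was -0.59 over 6 arrays and -0.42 without replicate 1. The 8 macrophage markers summed to 3850 to 5330 in Pogz-KO and 5490 to 6430 in Pogz-WT (5490 to 5690 without replicate 1). The 4 megakaryocyte markers summed to 3440 to 4240 in Pogz-KO and 4050 to 4450 in Pogz-WT (4050 to 4280 without replicate 1). In either list 0 were called. The medians over 6 arrays and without replicate 1 were -0.06 and -0.17 for macrophages, and -0.16 and -0.13 for megakaryocytes. The 6 granulocyte markers summed to 17500 to 19400 in Pogz-KO and 14300 to 17600 in Pogz-WT (14300 to 15000 without replicate 1). Without replicate 1, 2 rose, and the median was 0.18 over 6 arrays and 0.27 without that array. The 9 markers of stem and progenitor cells, in which the LIN28B axis is best known, summed to 1130 to 1280 in Pogz-KO. In Pogz-WT they summed to 980 to 1180 (1080 to 1180 without replicate 1). Without replicate 1, 1 rose, but the median log2 fold change was -0.32 over 6 arrays and -0.19 without that array. No marker was at 0, and of the erythroid and hepatoblast markers that define FL none lay below the array median on all arrays, although Procr, Pecam1 and Pdgfra lay below the array median on all arrays. The part of these values in those of the members and lists was not tested.

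The genes whose log2 intensities followed each member most closely over the 6 arrays were picked by Pearson r among 9096 or 9097 genes at or above the median signal, with no test. They were Clint1, Shprh and Cdc14a for Igf2bp1 (r = 0.998 each), Zfp513, Slc23a1 and Mylk3 for Igf2bp3 (0.994 to 0.995), and Nme2, Plxna2 and Sf3b6 for Hmga2 (0.995 to 0.997). For Arid3a they were Mtfr2, Rap1gap2 and Rab31 (0.980 to 0.987), and for the dim Lin28b Anapc4, Timm22 and Chmp6 (0.946 to 0.967). No gene appeared for more than 1 member. The values describe 6 shared arrays, Pogz-WT replicate 1 among them.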

How the data were processed

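RNA from E14.5 FLs of 3 Pogz-KO and 3 Pogz-WT embryos was measured. The authors deposited linear intensity values, for which the submitters' processing notes name Affymetrix Expression Console. Its version is not given in the sources used here. Their medians differ between arrays, so no quantile normalization had been applied. After 64 control probe sets were left out, 45037 were tested. In the probe annotation, 932 of them name several genes and 9160 no gene, and the other 34945 gave 18193 genes, each read by its brightest probe set. Arrays were named by the genotype and replicate number in their titles. The number of arrays limits the precision, and the replicates are labelled as biological.

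Genotype was the only term of a two-sided limma fit (lmFit and eBayes; limma 3.58.1, R 4.3.3) to log2 intensities, and summaries were made in Python 3.11.15 with pandas 2.3.3. The calculations were tested on simulated data. Alternatives were limma with trend and robust, quantile normalization, median centring, 16 added before log2, a filter on dim probe sets, the methods' t-test, a 1.5-fold minimum, the replicate block, leaving out each array and, for genes, the mean of all probe sets. The last of these without Pogz-WT replicate 1 was chosen after seeing the data. The members, the lists and the fits without that array were chosen with earlier results of these data known. Named genes are all members with each probe set, the 3 genes with the largest moderated t over 6 arrays in each list, any list gene called with trend and robust over 6 arrays or without Pogz-WT replicate 1, and the 3 genes most alike to each member. Igf2 falls outside this rule. The let-7 sequences are from RefSeq (GRCm38.p6).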

Additional observations from a re-analysis of the deposited data

How the results depend on the processing

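Over 6 arrays 0 member genes, 0 member probe sets and 0 list genes were called in limma's plain fit, and likewise (0 to 0) when each array was left out in turn, with quantile normalization, median centring, 16 added before log2, the dim filter, the methods' t-test or a 1.5-fold minimum. With trend and robust over 6 arrays 1 list gene was called, and 22 of all 18193 genes. Without Pogz-WT replicate 1, trend and robust called 10 list genes, 7 with quantile normalization, 21 with median centring and 1 with the mean of all probe sets. Of all 18193 genes these fits called 815, 679, 1944 and 185 in that order. Median centring in that fit also called 1 member gene and 3 member probe sets, all of Igf2bp1. The share of all probe sets that it called is not given here. Samples with the same replicate number did not deviate together (r = -0.00503 to 0.00784), and those with different numbers were as near 0 (-0.0149 to 0.0199). These values cannot show whether livers were paired, and the labels name no pairs. With the replicate block 0 genes were called, and 2027 had an unadjusted p under 0.05, against 2389 without it; it left the log2 fold change of Igf2bp1 at 0.44 (limma, adjusted p = 0.4997).

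Median centring moved the median of all genes to 0.29 over 6 arrays, against -0.17 as deposited, and turned several signs. Over 6 arrays it gave log2 fold changes of 0.13 for Igf2bp3, 0.41 for Arid3a, 0.17 for 1459825_x_at, 0.04 for 1433732_x_at, 0.10 for 1450781_at and 0.43 for 1450780_s_at. Without Pogz-WT replicate 1 (trend and robust) it gave 0.12 for Igf2bp3, 0.07 for Hmga2, 0.40 for Arid3a, 0.17 for 1433732_x_at, 0.04 for 1450781_at and 0.21 for 1450780_s_at. Arid3a was 0.13 without that array, with trend and robust and with the mean of all probe sets alike, and 0.08 with quantile normalization. The mean of all probe sets gave 0.36 for Igf2bp3, 0.05 for Drosha and -0.54 for Tgfbr1 over 6 arrays, and 0.25 for Igf2bp3, 0.10 for Drosha, -0.39 for Tgfbr1, 0.08 for Actb, -0.16 for Ybx1 and -0.06 for Elavl1 without replicate 1, since probe sets of these genes disagree. Leaving out 1 array at a time gave -0.16 to 0.13 for Arid3a, -0.69 to 0.43 for 1459825_x_at and -0.10 to 0.07 for 1450780_s_at. The dim filter left out Lin28b, whose signal below the array medians limits what can be said of it. Median centring subtracts each array's median, so within a fit it adds the same amount to every log2 fold change. Why the array medians differ was not tested. For the other shifts, apart from those of the mean of all probe sets, the cause was not tested.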
